A study of Mus musculus with 23 samples.

Results

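The 9 genes described here mark the basal, simple epithelial and squamous states of airway epithelium, and were chosen by symbol among the 35322 genes of the table: Krt5, Krt14, Krt15 and Trp63 of basal cells, Krt7, Krt8, Krt18 and Krt19 of simple epithelium, and the squamous gene Sprr1a. All 9 were listed, and 7 of them are keratins, out of 53 keratin symbols in the table. RNA-Seq had been performed on lung of 23 BALB/c offspring aged 13 weeks, given as female. The 7 Sham offspring were born to dams given saline and the 7 PM offspring to dams given PM2.5, fine particulate matter, through the nose from before mating until weaning. Both of these groups received a saline challenge, given as PBS in the labels and as nebulised saline in the study's methods. The 5 Sham-OVA and 4 PM-OVA offspring had the same maternal exposures, but were challenged with aerosolised ovalbumin (OVA) to induce allergic airway disease. The study's methods describe an earlier sensitisation with OVA in alum for each offspring, and do not say whether the saline groups were left out of it. The lungs had undergone lung function testing with methacholine. RNA came from a piece of lung that was not separated into cell types (given as RML in the labels and as right lower lobe in the study's methods), so fewer cells of a type and less RNA per cell cannot be told apart.

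Values are given in RPM, in which the reads on a gene are scaled to the size of the library, as in the deposited table. Reads on genes ranged from 13089691 to 17393579 in the saline libraries, from 2298645 to 12185451 in Sham-OVA and from 4324326 to 12355561 in PM-OVA. The 3 shallowest libraries were replicate 3 of Sham-OVA, where 1 read was worth 0.311 RPM, and replicates 3 and 4 of PM-OVA, where it was worth 0.133 and 0.182 RPM. Sham replicate 1 went against its label, with 222 RPM summed over 4 Y-linked genes and 0.289 RPM of Xist, whereas the other 22 libraries had at most 0.132 and at least 174 RPM. Without it, the same number of genes was called for the OVA challenge in Sham offspring, 2 higher and 3 lower. The alveolar type 2 genes that define lung summed to at least 10871 RPM in every library.

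Keratins are the intermediate filament proteins of epithelial cells, and a type II keratin (Krt5, Krt7 or Krt8) polymerises with a type I keratin (Krt14, Krt15, Krt18 or Krt19). Basal cells, the stem cells of the pseudostratified airway, express Krt5 with Krt14 or Krt15 under the transcription factor Trp63 (p63), whereas luminal and alveolar epithelium express the simple pairs. During squamous differentiation epithelial cells build a cornified envelope, into which transglutaminases cross-link small proline-rich proteins such as Sprr1a.

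The type II genes Krt5 (ENSMUSG00000061527, 101707070 to 101712898), Krt7 (ENSMUSG00000023039, 101411043 to 101430313) and Krt8 (ENSMUSG00000049382, 101996698 to 102004482) lie on chromosome 15 of GRCm38, and so does the type I gene Krt18 (ENSMUSG00000023043, 102028180 to 102032027), which starts 23.7 kb beyond Krt8 and is read in the opposite direction. Krt14 (ENSMUSG00000045545, 100203162 to 100207548), Krt15 (ENSMUSG00000054146, 100131758 to 100135928) and Krt19 (ENSMUSG00000020911, 100140810 to 100148665) lie in the type I cluster on chromosome 11, where Krt15 and Krt19 are 4.88 kb apart. Trp63 (ENSMUSG00000022510, 25683763 to 25892102) spans 208 kb of chromosome 16, and Sprr1a (ENSMUSG00000050359, 92483952 to 92485895) spans 1.94 kb of chromosome 3. Reads were counted over genes, so no value belongs to 1 exon or transcript. In the GENCODE transcripts, the longest Krt8 transcript was 98.6% identical to the pseudogene Krt8-ps over 941 bases, Krt18 was 90.5% identical to the pseudogene Gm5200 over 1267 bases and Krt14 was 89.4% identical to Krt17 over 961 bases. Values of these genes are therefore less certain where reads could have been placed on the copy. The start of Krt7 and the 5′ end of Krt8 overlap genes on the other strand, Gm671 and Gm36026, and the strand setting of the counting was not given in the sources used here.

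RefSeq (GRCm38.p6) promoters were matched for 6 of the 9 genes. Those of the squamous gene that rose after OVA, Sprr1a, and of 3 simple keratins that were lower are printed as the 250 bases before the RefSeq transcription start, 5′ to 3′ along the gene. Capitals mark any match on either strand to 3 motifs: TGANTCA (AP-1, which reads the same on both strands), TATAAA and GGGCGG (the GC box). The 3 motifs were held by 6.75%, 12.4% and 32.7% of all 32851 promoters of this length, and no matches overlapped.
Sprr1a, chr3:92485882-92486131, minus strand: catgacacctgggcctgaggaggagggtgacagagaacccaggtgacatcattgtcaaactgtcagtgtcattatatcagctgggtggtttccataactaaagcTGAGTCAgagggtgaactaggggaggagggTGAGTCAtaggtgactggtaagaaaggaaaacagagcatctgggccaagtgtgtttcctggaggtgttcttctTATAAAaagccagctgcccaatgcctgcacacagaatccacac
Krt7, chr15:101412153-101412402, plus strand: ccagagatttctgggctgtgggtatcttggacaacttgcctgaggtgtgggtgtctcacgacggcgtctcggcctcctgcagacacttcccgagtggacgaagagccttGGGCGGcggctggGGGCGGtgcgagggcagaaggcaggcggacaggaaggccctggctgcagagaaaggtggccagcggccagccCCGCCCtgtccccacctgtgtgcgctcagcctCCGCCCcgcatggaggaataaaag
Krt8, chr15:102004343-102004592, minus strand: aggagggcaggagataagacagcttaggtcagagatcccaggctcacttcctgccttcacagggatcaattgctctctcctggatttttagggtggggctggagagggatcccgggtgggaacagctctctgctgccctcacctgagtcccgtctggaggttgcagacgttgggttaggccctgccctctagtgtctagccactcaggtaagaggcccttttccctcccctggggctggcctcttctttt
Krt18, chr15:102027966-102028215, plus strand: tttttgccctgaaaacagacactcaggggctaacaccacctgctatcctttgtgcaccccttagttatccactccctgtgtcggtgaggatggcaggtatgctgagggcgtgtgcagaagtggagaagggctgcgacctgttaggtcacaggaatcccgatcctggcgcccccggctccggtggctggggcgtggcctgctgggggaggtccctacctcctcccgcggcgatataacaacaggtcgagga
Sprr1a held 2 AP-1 matches, beginning 146 and 116 bases before the start, and a TATAAA beginning 43 bases before it. Krt7 held 4 GC boxes, and neither Krt8 nor Krt18 held any of these letters. The matched promoters that are not printed, those of Krt14, which was also higher after OVA, and of Krt5, held none either. A match describes the sequence only, and binding was not measured.

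Among the 9 genes, RNA of the simple keratins Krt19 and Krt7 exceeded that of all the others in every group when levels were divided by the length of the longest transcript. In Sham, Krt19 was at 95.8 ± 19.7 RPM per kb and Krt7 at 85.6 ± 7.05 (SD, n = 7), and their ranges overlapped. Krt18 followed at 12.5 ± 2.21 RPM per kb, below the range of Krt7 and above that of Krt8. Krt8 was at 0.506 ± 0.212, Krt15 at 0.427 ± 0.358, Sprr1a at 0.265 ± 0.309, Trp63 at 0.113 ± 0.0561, Krt14 at 0.0603 ± 0.0649 and Krt5 at 0.00412 ± 0.0109 RPM per kb, and each of these overlapped its neighbour in the order. The order was the same in PM. Krt7 and Krt19 together made up a mean of 92.9% (Sham), 93.4% (PM), 95.4% (Sham-OVA) and 96.4% (PM-OVA) of the summed level per kb of the 9 genes. In both OVA groups the range of Krt19 lay above that of Krt7, with means of 120 and 62.0 RPM per kb in Sham-OVA and 147 and 67.5 in PM-OVA, and Sprr1a moved to the fourth place. Krt8 was far below Krt18, with which it forms a pair: 0.506 against 12.5 RPM per kb in Sham. The Krt8 level is uncertain, since its reads could have been placed on the pseudogene Krt8-ps (98.6% identical over 941 bases), which was not tested.

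To assess the response to allergen, Sham-OVA was compared with Sham, and PM-OVA with PM. Across all genes tested, the median difference in log2(RPM + 0.5) was -0.48 in Sham offspring and -0.43 in PM offspring, so differences are also given relative to it. Of 16795 genes tested with limma at a Benjamini-Hochberg adjusted p under 0.05, 20.6% were higher and 47.5% lower in Sham offspring, and 20.1% were higher and 45.2% lower in PM offspring. The filter, at least 0.5 RPM in 4 libraries, was passed by 8 of the 9 genes and not by Krt5. Krt14 passed it only through 8 OVA libraries, and Sprr1a through 9 OVA and 2 saline libraries. In each cohort 2 of the 8 were higher, Krt14 and Sprr1a, both of which owe the filter to their OVA libraries, so nothing is read from that count. A further 3 were lower (Krt7, Krt8 and Krt18). At a stricter threshold based on the study's methods, which asked for a log2 change of more than 1 in either direction with an adjusted p below 0.000001, 0 of the 8 were called in either cohort with limma, where 4.51% and 0.286% of all genes were called. With DESeq2 on recovered reads, a setting chosen after seeing the data, that threshold was passed by 28.9% of all genes in Sham and 17% in PM offspring. DESeq2 tested 7 of the genes in Sham offspring, where Krt15 had no p-value, and 8 in PM offspring. The threshold was passed in Sham offspring by Krt14 (log2 fold change 3.93, DESeq2 adjusted p = 1.55e-09), Sprr1a (3.97, adjusted p = 1.55e-07) and Krt18 (-1.33, adjusted p = 3.32e-08), and in PM offspring by none. Krt14 and Sprr1a owe the same filter to their OVA libraries, so nothing is read from their DESeq2 calls either. The OVA comparisons have different control groups and are shown side by side in the plot of fold changes.

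**Figure D1:**
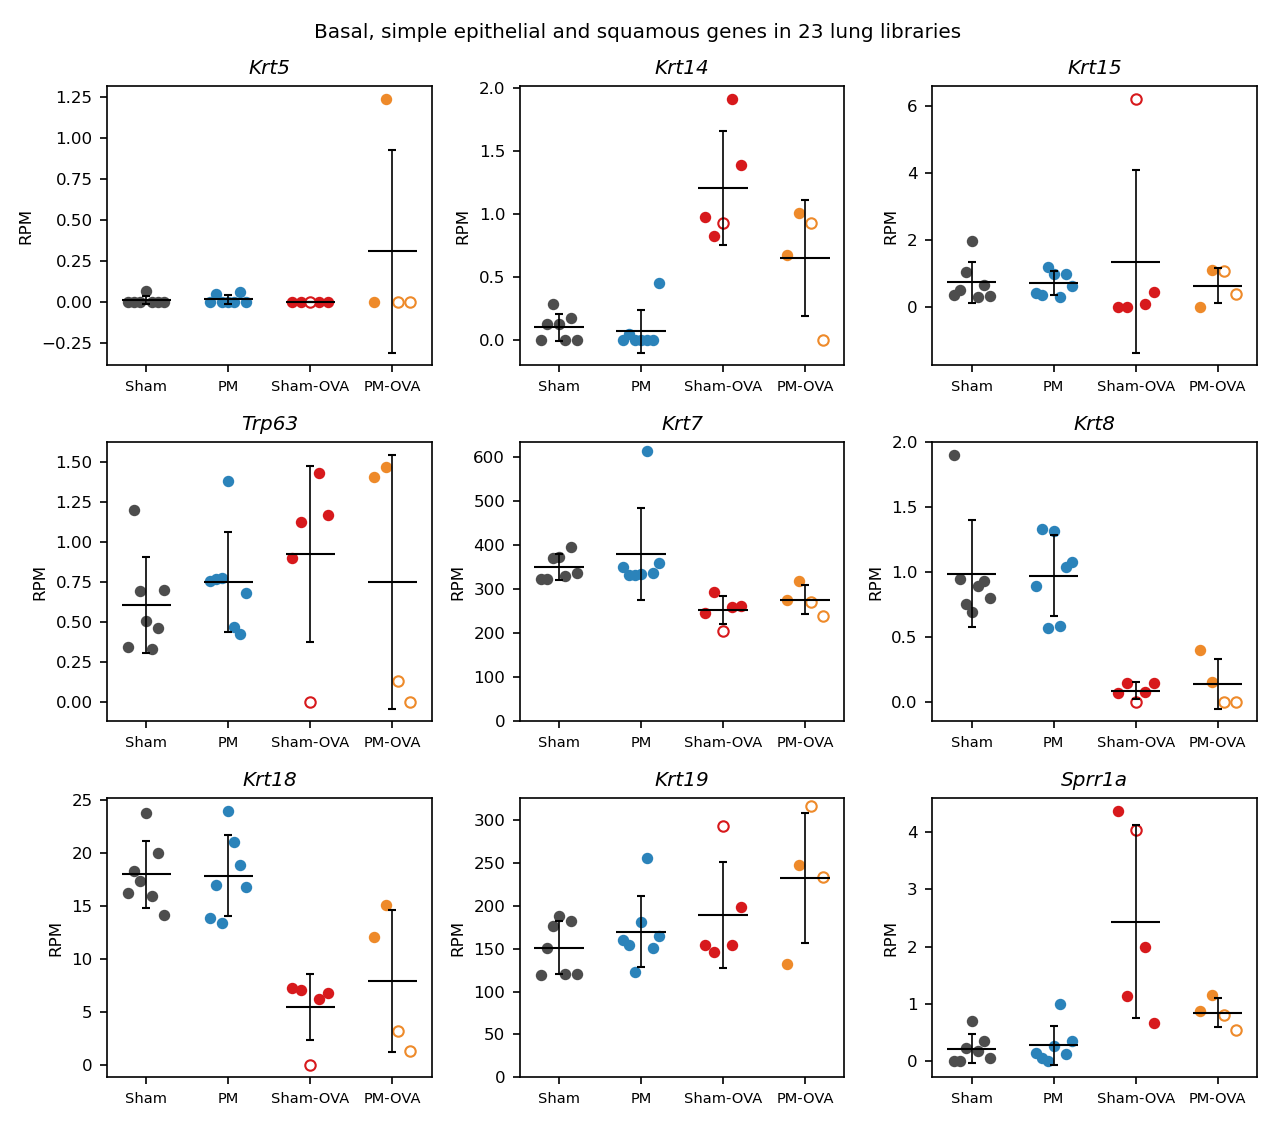
RPM (linear axes, one scale per gene) of the 9 genes in each of 23 libraries, grouped on the horizontal axis. Each point is 1 library, open points are the 3 shallowest libraries, and bars show the mean ± SD, which can pass below 0 where 1 library stands apart. Krt8 was lower in all 9 OVA libraries than in any saline library, and Krt14 was higher in 8 of the 9 than in any saline library.

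Of the basal genes, Krt14 was higher after OVA, whereas Krt5, its type II partner, was almost without reads. Krt5 had 1 read in each of 3 saline libraries and 0 reads in all 5 Sham-OVA libraries, which allows up to 0.0525 RPM over the group, by counting error only. In PM-OVA it was at 0, 1.24, 0 and 0 RPM, so that all 16 reads came from replicate 2. This library was the only one of the 23 with more than 1 Krt5 read, and no test was made.

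Krt14, the basal type I keratin, was between 0 and 0.289 RPM in Sham (median 0.127) and between 0 and 0.455 in PM (median 0). In Sham-OVA it was at 0.973, 0.828, 0.932, 1.91 and 1.39 RPM. All 5 values lay above every Sham library, and the log2 fold change was 1.49 (SE 0.20, limma adjusted p = 1.55e-05), or 1.97 above the median of all genes. In a fit without the filter, which Krt14 passed through its OVA libraries, the limma adjusted p was 7.49e-05 in Sham and 0.049 in PM offspring. In PM-OVA it was at 0.672, 1.00, 0.929 and 0 RPM, with 3 of 4 libraries above all PM libraries, and the change was 0.93 (SE 0.30, limma adjusted p = 0.0154). Krt14 in PM offspring was no longer called without PM-OVA replicate 2 (0.76, adjusted p = 0.0541) or replicate 3 (0.79, adjusted p = 0.0571), with array weights (0.87, adjusted p = 0.0835) or with the length and GC trend removed (0.64, adjusted p = 0.0552), and adjusted p ranged from 0.000925 to 0.0835 over all settings. These are small numbers of reads, 3 to 24 per Sham-OVA library and 0 to 13 per PM-OVA library. Krt17, which shares sequence with Krt14, had 0 reads in the 14 saline libraries and reads in 3 OVA libraries, of at most 1.86 RPM.

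Krt15, the other basal type I keratin, was detected in every saline library, between 0.279 and 1.97 RPM in Sham (median 0.507) and between 0.293 and 1.19 in PM (median 0.626). Its values in Sham-OVA were 0, 0, 6.21, 0.0797 and 0.438 RPM. The high value was from replicate 3, the shallowest library, with 20 reads. The log2 fold change of -0.20 (SE 0.55, limma adjusted p = 0.764) became -0.89 (adjusted p = 0.0146) without that library, and adjusted p ranged from 0.0146 to 1 over the settings. In PM-OVA, Krt15 was at 0, 1.08, 1.06 and 0.363 RPM, all within or below the range of PM, and the difference was -0.17 (SE 0.34, limma adjusted p = 0.661).

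Trp63, the basal cell transcription factor, was between 0.335 and 1.20 RPM in Sham (median 0.507) and between 0.428 and 1.38 in PM (median 0.757). In Sham-OVA it was at 0.903, 1.13, 0, 1.43 and 1.17 RPM, and in PM-OVA at 1.41, 1.47, 0.133 and 0. The 3 low values were those of the 3 shallowest libraries. With all libraries the log2 fold change was 0.27 (SE 0.31, limma adjusted p = 0.451) in Sham offspring and -0.23 (SE 0.37, adjusted p = 0.607) in PM offspring. Without the 3 shallowest libraries it was 0.61 (adjusted p = 0.0186) and 0.67 (adjusted p = 0.0485). In Sham offspring Trp63 was also called higher with the length and GC trend removed (1.27, limma adjusted p = 0.000163), edgeR (1.12, adjusted p = 0.0311), DESeq2 (1.05, adjusted p = 0.0241), quantile normalisation (0.78, adjusted p = 0.00788) and array weights (0.61, adjusted p = 0.026). The adjusted p over all settings ranged from 0.000163 to 0.798 and from 0.0182 to 1. The part of sequencing depth in these values was not tested.

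Of the simple keratins, the pair Krt8 and Krt18 was lower after OVA, although the call of Krt18 in PM offspring was lost in some settings. Krt7 was lower by as much as the median gene, and Krt19 did not pass the test. Krt8, a type II keratin of simple epithelium, was between 0.698 and 1.91 RPM in Sham (median 0.892) and between 0.571 and 1.33 in PM (median 1.04). In Sham-OVA it was at 0.0695, 0.151, 0, 0.0797 and 0.146 RPM, and in PM-OVA at 0.403, 0.155, 0 and 0. No OVA library reached the lowest saline library, and 14 Krt8 reads were counted over the 9 OVA libraries compared with 236 over the 14 saline ones, which were also deeper. The log2 fold change was -1.31 (SE 0.19, limma adjusted p = 3.61e-05) in Sham offspring and -1.22 (SE 0.23, adjusted p = 0.00067) in PM offspring, or -0.83 and -0.79 relative to the median of all genes. With DESeq2 on recovered reads the change of Krt8 was -2.95 (adjusted p = 4.65e-05) and -2.15 (adjusted p = 0.00281). The DESeq2 changes of Krt18 were -1.33 and -0.93, so which of the pair fell more depended on the fit. Krt8 was called lower in each cohort in every setting tried other than the study's threshold.

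Krt18, the type I partner of Krt8, was between 14.2 and 23.8 RPM in Sham (median 17.4) and between 13.5 and 24.0 in PM (median 17.0). In Sham-OVA it was at 7.23, 7.07, 0, 6.22 and 6.79 RPM, all below Sham. The log2 fold change was -2.10 (SE 0.55, limma adjusted p = 0.00368), and it was -1.32 (adjusted p = 5.13e-07) without Sham-OVA replicate 3, in which 0 reads were counted. In PM-OVA, replicates 1 and 2 were at 12.1 and 15.2 RPM, close to or within the range of PM, whereas replicates 3 and 4, the shallow libraries, were at 3.19 and 1.27. The change in PM offspring was -1.59 (SE 0.49, limma adjusted p = 0.0117). It was not called without the filter (limma adjusted p = 0.0527), with the replicate block (limma adjusted p = 0.0679) or with edgeR (-0.865, adjusted p = 0.0714). Without the 3 shallowest libraries, 2 PM-OVA libraries remained and the change was -0.36 (adjusted p = 0.166, with a range from 4.5e-05 to 0.166 over the settings). In the same setting the interaction of maternal PM2.5 and OVA for Krt18 was 0.96 (limma adjusted p = 0.0348), compared with 0.50 (SE 0.79, adjusted p = 1) in all libraries. That setting called 612 genes higher and 109 lower among all 16795, whereas 0 were called with all libraries. The part of depth in the values of Krt18 was not tested.

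Krt7, the most abundant of the 9 genes in RPM, was between 323 and 395 RPM in Sham (median 337) and between 332 and 614 in PM (median 338). The value of 614 was that of PM replicate 5, and the other 6 PM libraries were at or below 359. In Sham-OVA it was at 246, 294, 206, 260 and 262 RPM, and in PM-OVA at 275, 319, 272 and 239. Neither OVA group overlapped its saline group. The log2 fold change was -0.47 (SE 0.12, limma adjusted p = 0.00384) in Sham offspring and -0.43 (SE 0.18, adjusted p = 0.0485) in PM offspring, within 0.01 of the median of all genes in each. With median-of-ratios scaling the differences were -0.10 (adjusted p = 0.48) and -0.07 (adjusted p = 0.762), and after the dependence on transcript length and GC content had been removed they were 0.05 in each. The adjusted p over the settings ranged from 0.00169 to 0.975 and from 0.0157 to 0.846.

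Krt19, a type I keratin of luminal epithelium, was between 119 and 187 RPM in Sham (median 151) and between 123 and 256 in PM (median 161). Its values were 154, 146, 293, 155 and 199 RPM in Sham-OVA and 132, 247, 315 and 233 in PM-OVA. Both OVA groups overlapped their saline group. The log2 fold change was 0.30 (SE 0.19, limma adjusted p = 0.184) and 0.41 (SE 0.23, adjusted p = 0.133). With median-of-ratios scaling it was 0.67 (adjusted p = 0.0323) and 0.78 (adjusted p = 0.0285), and with edgeR on recovered reads 0.88 (adjusted p = 0.00702) and 0.89 (adjusted p = 0.0118). With the length and GC trend removed it was 0.02 (adjusted p = 0.936) and 0.08 (adjusted p = 0.774). The adjusted p over all settings ranged from 0.00606 to 0.936 in Sham offspring and from 0.00477 to 0.774 in PM offspring.

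**Figure D2:**
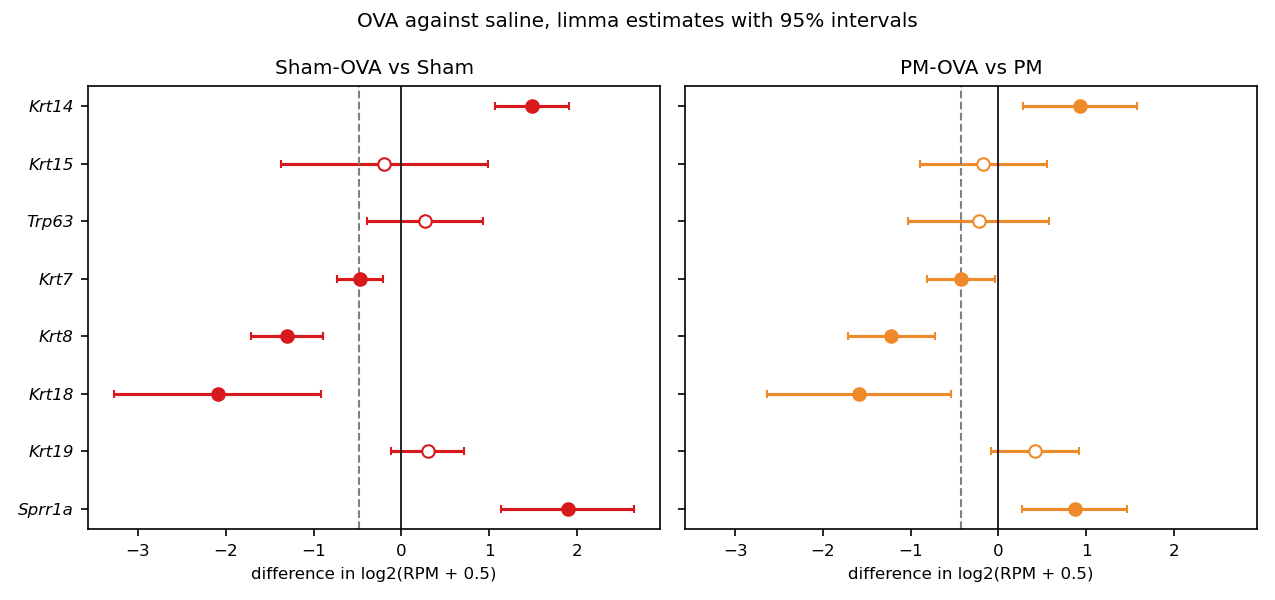
Difference in log2(RPM + 0.5) between OVA and saline libraries for the 8 genes past the filter, in Sham offspring (left, 5 against 7 libraries) and PM offspring (right, 4 against 7). Points are limma estimates, bars are 95% confidence intervals, filled points have an adjusted p under 0.05, and the dashed line is the median of all genes tested (-0.48 and -0.43), on which the estimates of Krt7 lie.

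The squamous gene Sprr1a, which owes the filter to its OVA libraries, was higher after OVA in both cohorts, in PM offspring not in every setting. It was between 0 and 0.698 RPM in Sham (median 0.167) and between 0 and 0.998 in PM (median 0.138). In Sham-OVA it was at 4.38, 1.13, 4.04, 1.99 and 0.657 RPM, with 4 of 5 above all Sham libraries. The log2 fold change was 1.89 (SE 0.35, limma adjusted p = 0.000275; 0.0029 without the filter), or 2.37 above the median gene. The PM-OVA values of 0.873, 1.16, 0.797 and 0.545 RPM were each above 6 of the 7 PM libraries, and 1 of them was above PM replicate 5. The change in PM offspring was 0.87 (SE 0.28, limma adjusted p = 0.0144, and 0.0412 without the filter). With the length and GC trend removed it was 0.39 (limma adjusted p = 0.222), and adjusted p ranged from 0.00106 to 0.222 over the settings. The other small proline-rich genes examined, Sprr1b, the Sprr2 genes, Sprr3 and Sprr4, were listed at 0 in all 23 libraries.

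Ratios within a library depend little on the scaling of libraries where both genes lie far above the pseudocount, as Krt7 and Krt19 did. Ratios of the type II over the type I gene of each pair were compared with two-sided exact permutation tests. The p-values were adjusted over the 8 tests that the filter allowed. Krt7/Krt19 was lower after OVA in the values as deposited, and not once the dependence on transcript length and GC content had been removed. The mean log2 ratio was 1.23 ± 0.21 in Sham (SD, n = 7) and 0.46 ± 0.58 in Sham-OVA (n = 5), a difference of -0.77 (exact permutation p = 0.00253, adjusted p = 0.0202), with 4 of 5 Sham-OVA libraries below all Sham libraries. In PM it was 1.16 ± 0.17 (n = 7) and in PM-OVA 0.31 ± 0.55 (n = 4), a difference of -0.85 (exact permutation p = 0.00606, adjusted p = 0.0242). The difference in Sham offspring was -0.53 without Sham-OVA replicate 3, in which the ratio was -0.51. With the length and GC trend removed the differences were 0.02 in Sham offspring (exact permutation p = 0.881, adjusted p = 0.984) and -0.03 in PM offspring (exact permutation p = 0.821, adjusted p = 0.984). In PM offspring the adjusted p was 0.0667 without PM-OVA replicate 2, 3 or 4 in turn. Krt8/Krt18 did not pass the test in any comparison with a pseudocount of 0.5. The differences were 0.79 in Sham offspring (exact permutation p = 0.22, adjusted p = 0.586) and 0.37 in PM offspring (p = 0.473, adjusted p = 0.756). Krt8 was below the pseudocount of 0.5 RPM in every OVA library, so this ratio was set largely by the pseudocount. Summed over libraries, Krt8 and Krt18 had 120 and 2161 reads in Sham and 6 and 369 in Sham-OVA. In PM they had 116 and 2123 reads, and in PM-OVA 8 and 407. By these reads Krt8 was lower relative to Krt18 after OVA, and this was not tested. With a pseudocount of 1 the difference in Sham offspring was 1.01 (exact permutation p = 0.0126, adjusted p = 0.0337), and with 0.1 it was 0.06 (exact permutation p = 0.97, adjusted p = 0.984). In PM offspring the difference with a pseudocount of 0.1 was -0.73 (exact permutation p = 0.103, adjusted p = 0.275). The ratios with Krt5 were not tested, since Krt5 did not pass the filter.

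**Figure D3:**
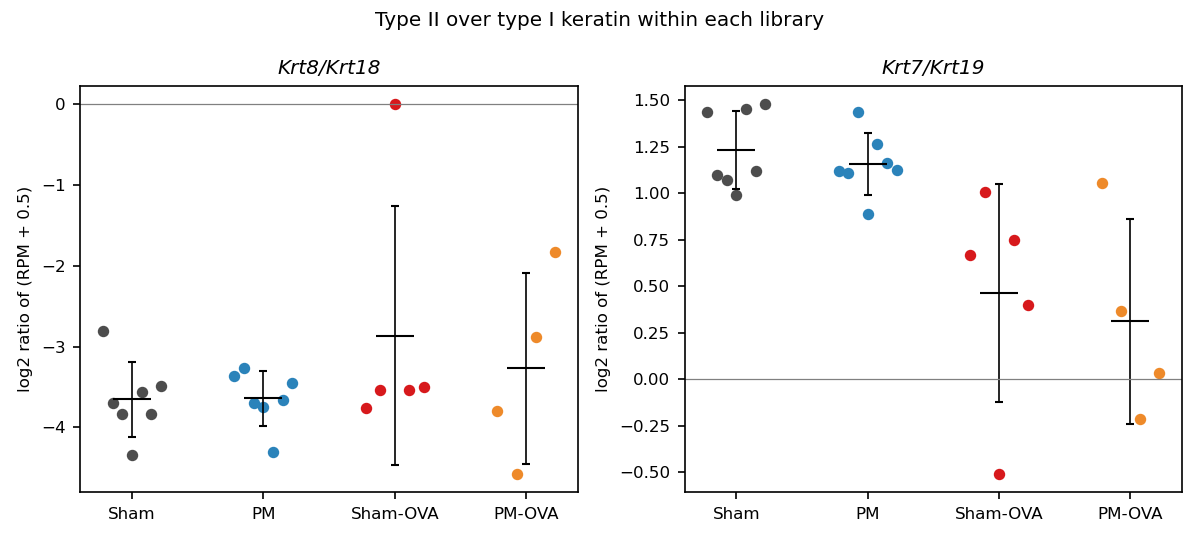
Log2 ratio of (RPM + 0.5) of Krt8 over Krt18 (left) and Krt7 over Krt19 (right) in each library, by group on the horizontal axis. Points are libraries and bars show the mean ± SD. In these values, from which no length or GC trend was removed, Krt7/Krt19 was lower in 4 of 5 Sham-OVA and 3 of 4 PM-OVA libraries than in any library of the matched saline group.

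The genes were also set against the epithelial adhesion genes Epcam and Cdh1 (E-cadherin), which are expressed by epithelium as a whole. Epcam was at 73.8 ± 12.4 RPM in Sham (n = 7) and 99.5 ± 29.8 in Sham-OVA (n = 5), with a log2 fold change of 0.38 (limma adjusted p = 0.123), and at 73.5 ± 8.37 in PM (n = 7) and 105 ± 26.8 in PM-OVA (n = 4), with 0.49 (limma adjusted p = 0.0132). Cdh1 was not called in either cohort (0.02 and 0.18, adjusted p = 0.928 and 0.359). Relative to the mean of both, 3 genes were lower in all 5 Sham-OVA libraries than in any Sham library: Krt7 with a difference of -0.67, Krt8 of -1.50 and Krt18 of -2.29 (exact permutation p = 0.00126 and adjusted p = 0.00505 for each, the smallest p that 792 splits allow). The same 3 were lower in all 4 PM-OVA libraries than in any PM library, with differences of -0.77, -1.56 and -1.93 (exact permutation p = 0.00303, adjusted p = 0.00606 for each). Krt14 was higher on this scale in Sham offspring by 1.29 (exact permutation adjusted p = 0.00505) and not called in PM offspring (0.59, exact permutation adjusted p = 0.213), and Sprr1a by 1.70 (exact permutation adjusted p = 0.00606) and 0.53 (exact permutation adjusted p = 0.07). Krt14 and Sprr1a were tested here through the filter that they owe to their OVA libraries, so nothing is read from these calls. The differences of Krt19 were 0.10 and 0.08 (exact permutation adjusted p = 0.832 and 0.817), and with the length and GC trend removed -0.51 and -0.56 (exact permutation adjusted p = 0.0283 and 0.0121). In that setting Krt7, Krt8 and Krt18 were again lower in both cohorts, Trp63 was higher in Sham offspring (0.74, exact permutation adjusted p = 0.0247), Krt15 was lower in PM offspring (-1.04, exact permutation adjusted p = 0.0353) and Sprr1a was not called in Sham offspring (0.91, exact permutation adjusted p = 0.0539), while in PM offspring the differences of Krt14 and Sprr1a were -0.005 and -0.25 (exact permutation adjusted p = 0.991 and 0.391).

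To assess maternal exposure, PM was compared with Sham and PM-OVA with Sham-OVA, and the interaction was fitted in all 23 libraries. None of the 8 genes tested was called in these comparisons with limma, in which 0% of all genes were called (731, 313 and 854 of the 16795 genes had an unadjusted p under 0.05). In saline offspring the differences ranged from -0.10 for Krt14 (95% interval -0.44 to 0.25) to 0.18 for Trp63 (-0.20 to 0.57). After OVA the differences were wider, from -0.93 for Sprr1a (95% interval -1.94 to 0.07, limma adjusted p = 1) to 0.49 for Krt18 (-1.65 to 2.62). The interaction with the smallest p was that of Sprr1a, -1.02 (limma SE 0.47, limma adjusted p = 0.938). With array weights the interaction of Trp63 was -1.45 (limma adjusted p = 0.0197), in a fit that called 651 genes higher and 3965 lower among all genes.

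Lists of related genes were described in the same fits, in which 20.6% of all genes were higher and 47.5% lower in Sham offspring. In PM offspring these shares were 20.1% and 45.2%. All 9 hemidesmosome genes, which anchor basal and other epithelial cells to the basement membrane, fell in each cohort, with a median log2 fold change of -1.21 in Sham and -1.03 in PM offspring. The median of all genes was -0.48 and -0.43, and the smallest hemidesmosome fall in Sham offspring was -0.48. With median-of-ratios scaling, 6 and 7 of the 9 were called lower, compared with 6407 and 6003 of all 16795 genes. With the length and GC trend removed, 6 (where 1 was above 0) and 5 were called lower, compared with 5239 and 4894 of 16535 genes. The largest fall was that of Dst (dystonin), from 183 ± 62.0 RPM in Sham (n = 7) to 14.6 ± 2.39 in Sham-OVA (n = 5), a log2 fold change of -3.54 (limma adjusted p = 2.21e-08). Of 7 desmosome genes tested among 12, 2 rose and 5 fell in Sham offspring and 2 rose and 4 fell in PM offspring, with Pkp3 (plakophilin) at 0.77 (limma adjusted p = 0.00198) and Dsg2 (desmoglein) at -1.64 (adjusted p = 0.000112) in Sham offspring. Of 7 other basal cell genes tested among 9, 1 rose and 2 fell in Sham offspring, and 1 rose and 1 fell in PM offspring. With quantile normalisation 2 rose and 0 fell in Sham offspring. Bcam, a laminin receptor, rose by 0.47 (limma adjusted p = 0.0165), and Snai2, a transcription factor, fell by 0.78 on the log2 scale (adjusted p = 0.0482), a call that was lost with either other scaling.

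The squamous genes were in part without reads. Of 29 squamous and cornified envelope genes, 15 were listed at 0 in all libraries and 10 were tested, compared with 16795 tested of all 35322 genes. Of the 10, 1 rose and 2 fell in Sham offspring and 3 rose and 2 fell in PM offspring. In Sham offspring the median of the 10 was -0.20 on the log2 scale, and with median-of-ratios scaling it was 0.12, with 3 higher and 1 lower, and with quantile normalisation 0.25, with 4 higher and 1 lower. In PM offspring 4 were higher with either, and 2 and 1 lower. Tgm1, the transglutaminase of the cornified envelope, rose by 0.99 and 0.98 (limma adjusted p = 0.00604 and 0.00882), whereas Ppl (periplakin) changed by -2.78 and -1.83 (adjusted p = 6.68e-06 and 0.000386). Of the 46 other keratins, 20 were listed at 0 throughout and 8 were tested, and in each cohort 4 rose and 1 fell. Krt80, a type II keratin, fell from 268 ± 71.6 RPM in Sham (n = 7) to 76.2 ± 20.7 in Sham-OVA (n = 5), a log2 fold change of -1.81 (limma adjusted p = 1.4e-05), and the change was -1.59 in PM offspring (adjusted p = 0.000681). Krt222 rose by 1.87 and 1.22 (limma adjusted p = 0.000149 and 0.00237), from 0.446 RPM in Sham and 0.537 in PM.

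Epithelial transcription factors and transitional genes moved in both directions. Of 12 stratification factors tested among 13, 2 rose and 8 fell in Sham offspring, and 2 rose and 6 fell in PM offspring, compared with 3 and 4, and 3 and 3, with quantile normalisation. Elf3 rose by 1.93 and 1.95 (limma adjusted p = 9.31e-06 and 0.000103), and Klf4 changed by -5.80 and -4.81 (adjusted p = 1.46e-09 and 0.000638). Of 12 genes of the alveolar transitional state, in which Krt8 is a known marker, 5 rose and 2 fell in Sham offspring and 5 rose and 3 fell in PM offspring, compared with 6 and 0, and 5 and 2, with quantile normalisation. Lgals3 (galectin-3), which macrophages also express, rose by 2.23 and 1.97 (limma adjusted p = 1.53e-07 and 1.06e-05), and Hbegf changed by -0.81 and -0.97 (adjusted p = 0.0194 and 0.000883).

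Markers of other cell types that express keratins moved with the OVA challenge too, and their part in the results was not tested. All 7 goblet genes rose in each cohort, and their summed level was between 8.74 and 36.6 RPM in Sham and between 509 and 2158 in Sham-OVA, with Clca1 higher by 9.86 on the log2 scale (limma adjusted p = 8.33e-09). Of 6 club cell genes, 2 rose and 3 fell in each cohort, with a rise of Scgb3a1 by 5.26 (adjusted p = 7.54e-06) and Cckar at -2.72 (adjusted p = 1.11e-06) in Sham offspring. Of 8 multiciliated genes, 1 rose in Sham offspring (Dynlrb2, 1.22, limma adjusted p = 0.00507) and 6 rose in PM offspring. With median-of-ratios scaling, quantile normalisation or edgeR 3 were higher in Sham offspring, and 6, 7 and 8 in PM offspring, and the difference between the cohorts was not called for any of them. Alveolar type 1 genes numbered 1 higher and 5 lower of 7 in Sham offspring and 0 higher and 5 lower in PM offspring (2 and 4, and 2 and 3, with median-of-ratios scaling), with Ager at 0.53 (adjusted p = 0.012) and Clic5 at -2.83 (adjusted p = 1.16e-06) in Sham offspring. Of 6 alveolar type 2 genes, 1 rose and 3 fell in each cohort, and 0 and 3 with quantile normalisation (Sftpc at 1.19, limma adjusted p = 0.00147, and Lamp3 at -3.34, adjusted p = 0.000627). Among 9 mesothelial genes, 2 rose and 3 fell in each cohort (Msln at 0.95, limma adjusted p = 0.0196, and Muc16 at -1.59, adjusted p = 0.0019), and of 10 pan-epithelial genes 2 rose and 2 fell in Sham offspring and 5 rose and 1 fell in PM offspring (Spint2 at 1.49, adjusted p = 3.76e-06, and Esrp2 at -1.60, adjusted p = 3.06e-06). Of the pan-epithelial genes 4 were higher and 2 lower in Sham offspring with median-of-ratios scaling and 7 and 2 with edgeR, and 8 were higher and 1 lower in PM offspring with both.

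Basal keratins are also expressed in thymus and in the large airways, and markers of both were examined. Each list, summed over several genes, was at more RPM than Krt14 in every group. The thymus list summed to between 3.11 and 5.15 RPM in Sham and between 5.33 and 7.81 in Sham-OVA, with Foxn1 and Ptcra at 0 in all libraries and Prss16 higher by 2.23 (limma adjusted p = 2.24e-07), 1 of 2 genes tested. The cartilage list, a marker of large airways, summed to at most 6.95 RPM in Sham and 14.3 in Sham-OVA, and the 1 gene tested, Col11a2, rose by 1.28 (limma adjusted p = 0.00137). In PM offspring the tested genes of the thymus and cartilage lists also had 1 higher each. Their part in the values of Krt14 was not tested.

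**Figure D4:**
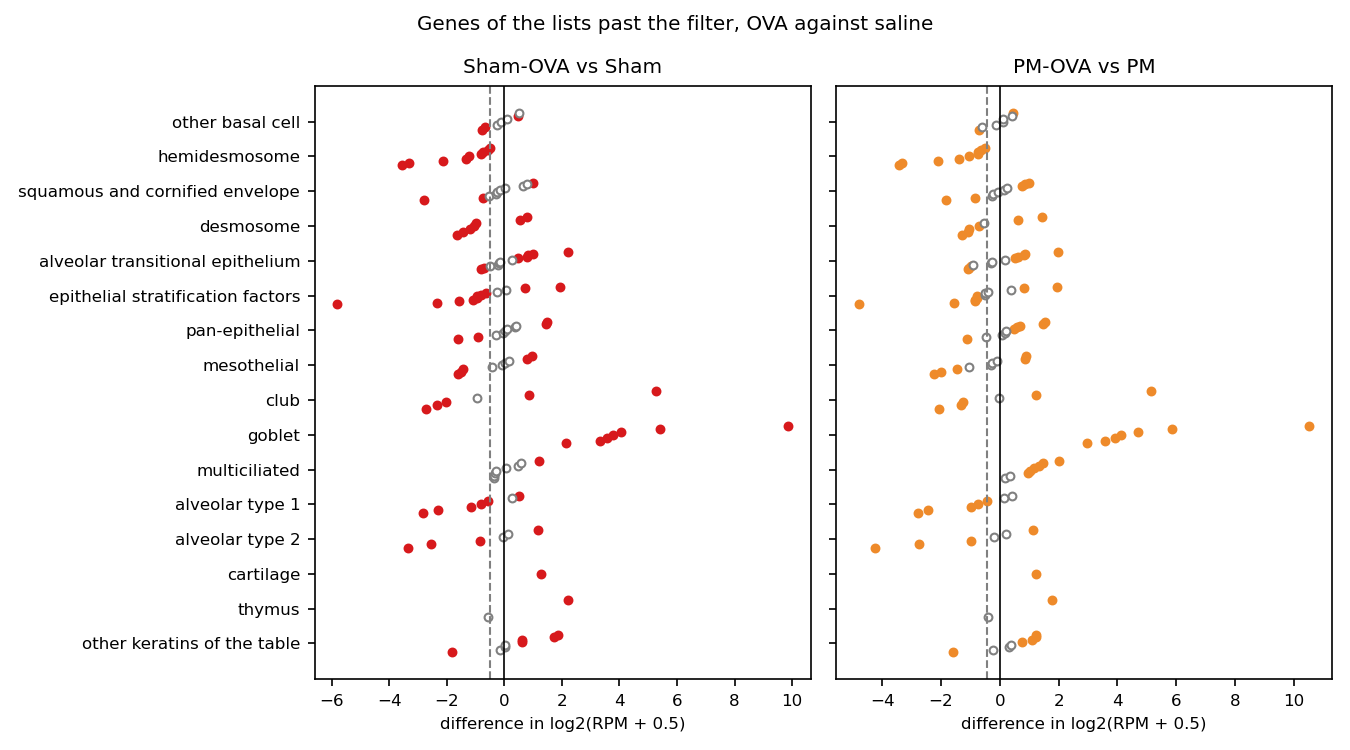
Difference in log2(RPM + 0.5) between OVA and saline libraries for each gene past the filter, by list, in Sham offspring (left) and PM offspring (right). Filled points have a limma adjusted p under 0.05 and open points do not, and the dashed line is the median of all genes tested. All 9 hemidesmosome genes lie below 0 and all 7 goblet genes above 0 in each cohort.

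Across the 14 saline libraries, 11 correlations of Krt5 and Krt8 with other members and lists were computed on log2(RPM + 0.5). Krt5 had 1 read in each of 3 libraries and 0 in the others, so its correlations describe those reads only, and none of its 7 had an adjusted p under 0.05. Krt8 and its partner Krt18 had a Pearson r of 0.06 (permutation p = 0.842) and a Spearman rho of 0.11 (permutation p = 0.703), with r of -0.30 in Sham and 0.36 in PM, and -0.01 without the 2 libraries farthest from the median of Krt8. Krt8 and Krt7 had an r of -0.48 (permutation p = 0.0894, adjusted p = 0.574) and a rho of -0.48 (permutation p = 0.0872, adjusted p = 0.807), with r of -0.50 in Sham and -0.56 in PM, and -0.64 without the 2 farthest libraries. The genes most like Krt8 by Pearson r over these libraries were Ldlrad4 (0.86), Rasal2 (0.84) and Aldh5a1 (0.84), and those most like Krt5 were Rpl39l (0.94), Pou4f1 (0.82) and Cfi (0.81), as the highest of all genes tested and with shared libraries and depth.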

How the data were processed

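RNA-Seq of 23 lungs was analysed in the 4 groups named in the labels. The RPM values were deposited by the authors, made from single-end reads that had passed Trimmomatic, been placed on GRCm38 by Bowtie2 (which does not split reads across introns) and been counted in SeqMonk. The table is named after RPKM, but 100% of values in each library were whole multiples of 1 read (within 0.1 of a read), whatever the gene length, so the planned tests were applied to RPM and reads were recovered. Values were tested as log2(RPM + 0.5) with limma 3.58.1 (R 4.3.3) with a variance trend, in 16795 genes, in the 2 groups of each comparison. The fold change on this scale understates changes of low genes. Ratios were compared with exact permutation tests (Python 3.11.15), and correlations with 100000 resamples. edgeR 4.0.16 and DESeq2 1.42.0 on recovered reads, other pseudocounts, filters, scalings, weights and left-out libraries were alternatives. The fits were checked on simulated data. Sequence similarity was found with blastn 2.17.0.

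All 9 genes are named, and of each list the called gene with the largest rise and the largest fall in Sham-OVA against Sham, with Epcam, Cdh1 and the 3 genes most like Krt5 and Krt8. Single genes outside this rule (Krt17, Sprr genes, Foxn1 and Ptcra) were chosen after their values were seen. Members and lists were chosen with earlier results of these data known. The labels do not give litters, so p-values measure the spread between these libraries.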

Additional observations from a re-analysis of the deposited data

Results flagged for a closer look

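Of 35 sets of libraries of 1 gene in 1 group, 10 had a library whose gap to the nearest other was above the 95% critical value of Dixon's ratio, which chance gives in about 1 in 20 sets drawn from a normal distribution. Several of these genes have few reads.

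Among the basal genes, Krt5 was at 1.24 RPM in PM-OVA replicate 2 (16 reads) with 0 in the other 3 libraries, and at 0.0634 RPM in Sham replicate 4, which is 1 read, with 0 in the other 6. Krt14 was at 0.455 RPM in PM replicate 7 (8 reads), where the others were at or below 0.0512. Krt15 was at 6.21 RPM in Sham-OVA replicate 3 (20 reads), where the others were at or below 0.438. Trp63 was at 1.20 RPM in Sham replicate 2 and at 1.38 RPM in PM replicate 4, above the 0.703 and 0.779 RPM of the next libraries.

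Among the simple keratins, Krt7 was at 614 RPM in PM replicate 5 (10459 reads), where the others lay between 332 and 359. Krt8 was at 1.91 RPM in Sham replicate 1, the library that goes against its label, with the others between 0.698 and 0.950. Krt18 was at 0 RPM in Sham-OVA replicate 3, with the others between 6.22 and 7.23. The squamous gene Sprr1a was at 0.998 RPM in PM replicate 5, the library in which Krt7 was also highest, with the others at or below 0.341.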

How the results depend on the processing

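The sign of the limma, edgeR and DESeq2 fold changes of Krt8 and Krt18 held under every setting, and the call of Krt18 in PM offspring did not. The signs of Krt14 and Sprr1a held in the settings that could test them, and their calls in PM offspring did not. Most of these settings reuse the filter that both owe to their OVA libraries, so nothing is read from these signs. With 5 genes called in each cohort, the study's threshold with limma left 0 in Sham and 0 in PM offspring, and with DESeq2, a pairing chosen after seeing the data, 3 (Krt14, Sprr1a and Krt18) and 0. Krt14 and Sprr1a are in these counts through a filter that they owe to their OVA libraries, so nothing is read from them. In PM offspring 3 were called without the filter on low values, with the replicate block, and with the length and GC trend removed, a setting chosen after seeing the data. Among all genes these settings called 3203 higher and 6838 lower of 35322, 2306 and 5701 of 16795, and 4863 and 4894 of 16535. Leaving out 1 library gave 5 to 7 genes in Sham and 3 to 6 in PM offspring. The 7 came without Sham-OVA replicate 3, where 4221 genes were higher and 7925 lower among all 16795. The 6 came without PM replicate 5 (3400 and 7483 among all genes), and 3 were called without PM-OVA replicate 3 (3107 and 6485). The interaction had 1 gene with array weights (Trp63) and 1 without the 3 shallowest libraries (Krt18), also chosen after seeing the data, and 0 when any 1 library was left out. Among all genes, array weights called 651 higher and 3965 lower, and the fit without the shallowest libraries 612 and 109. Maternal comparisons had 0 in every setting. Of the ratio tests, 2 passed, 1 to 2 did when 1 library was left out, 3 with a pseudocount of 1, and 0 with the length and GC trend removed. Relative to Epcam and Cdh1, 8 of 16 tests passed, 11 with that trend removed, and 8 to 9 under the other alternatives. The share of all genes passing on this scale was not computed, so nothing is read from these counts. Scaling moved the medians and splits of all genes. In Sham offspring 3453 higher and 7978 lower became 4903 and 6407 with median-of-ratios scaling, 5484 and 5812 with quantile normalisation, and 5584 and 5669 with edgeR, with medians of -0.17, -0.05 and -0.05. In PM offspring 3379 and 7589 became 4862 and 6003, 5288 and 5445, and 5120 and 5095.

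The log2 fold changes that changed sign were not called in the main fit, other than Krt7. Krt15 in Sham offspring was 0.043 with median-of-ratios scaling, 0.36 with quantile normalisation, 0.84 with edgeR, and between -0.89 and 0.045 with 1 library left out. In PM offspring it was 0.041, 0.31 and 0.20, with 0.26 with DESeq2, 0.11 with array weights and between -0.39 and 0.17 with 1 library left out. Trp63 in PM offspring was 0.21 with quantile normalisation, 0.44 with edgeR, 0.38 with DESeq2, 0.67 without the 3 shallowest libraries, 0.78 with the length and GC trend removed, and between -0.53 and 0.13 with 1 library left out. Krt7 with that trend removed was 0.045 in Sham and 0.046 in PM offspring. The causes were not tested.

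Replicate numbers did not pair the libraries, as deviations of same-numbered libraries correlated between -0.07 and 0.12 in Sham-OVA and Sham, between -0.10 and 0.06 in PM-OVA and PM, between -0.25 and 0.10 in PM and Sham, and between -0.31 and 0.62 in PM-OVA and Sham-OVA. The numbers are those of the labels, and differ from the number in the library name for some OVA libraries. With the replicate block, 5 genes were called in Sham and 3 in PM offspring, where Krt7 (-0.29, adjusted p = 0.228) and Krt18 (-1.52, adjusted p = 0.0679) were not called. Depth limits the low genes most: in Sham-OVA replicate 3 a count of 0 allows up to 0.932 RPM.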
